A study of Mus musculus with 6 samples.

Results

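The MAP kinase feedback genes described here are 10 genes whose products switch MAP kinase signals off again: the dual-specificity phosphatase genes Dusp1, Dusp4, Dusp5, Dusp6 and Dusp10, the Sprouty genes Spry1, Spry2 and Spry4, and the Sprouty-related genes Spred1 and Spred2. They were taken by name from the platform annotation, as all probe sets assigned to 1 of these genes alone. That gave 26 probe sets for the 10 genes, among 18193 genes and 45101 probe sets in all. RNA was measured with Affymetrix arrays in retinas of light damaged (3 arrays) and dark adapted (3 arrays) BALBc mice, an albino strain. Mice of both groups spent 1 week in the dark. The light damaged mice were afterwards placed for 6 h under white fluorescent light of 6000 lux, and their retinas were taken 24 h after the damage. The labels give neither the age of the mice nor whether a replicate is 1 animal, so each p-value reflects the spread among these arrays alone, and that spread may be technical.

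MAP kinases carry signals from the cell surface to the nucleus in parallel chains. Growth factor receptors act through Ras and Raf on ERK, while stress and inflammatory cytokines act mainly on JNK and p38. Many genes that active ERK induces encode its own brakes. Dual-specificity phosphatases remove the activating phosphates from the kinases, and Sprouty and Spred proteins inhibit the chain between the receptor and Raf. In the retina, ERK activation after injury has been described mainly in Müller glia, which span the whole tissue. In what follows Dusp4, Dusp5, Dusp6, the Sprouty genes and the Spred genes are grouped as ERK feedback genes (8 genes), and Dusp1 and Dusp10, whose products act mainly on JNK and p38, as stress-kinase phosphatases (2 genes).

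Dusp6 rose 3.23-fold after light damage, and it was the 1 gene of the 10 that passed the test. Dusp5, Spry2, Spred2 and Dusp10 were higher by 0.40 to 0.67 on the log2 scale and passed over all 6 arrays when those of the same replicate number were treated as pairs, but not without the pairing. No label states this pairing, which was inferred from the values of the same arrays. Dusp4 and Dusp1 had negative changes, and Spry4 stayed near 0, none of them past the threshold in either of these fits. The test was limma over all genes with a Benjamini-Hochberg adjusted p under 0.05, on the probe set with the highest mean for each gene. Of all genes, 1.74% passed it as higher and 0.269% as lower. With the replicate number as a block, 5 of the 10 genes were higher and 0 lower, against 6.73% and 2.13% of all genes. At an unadjusted p under 0.05, 5 of the 10 were higher and 1 lower, against 8.58% and 2.42% of all genes.

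The promoters of 4 of the phosphatase genes are shown because these genes span the observed range, with Dusp6 risen, Dusp5 and Dusp10 higher in the paired fit and Dusp1 not past the threshold. Each runs 5′ to 3′ on the gene's strand over 250 bases before and 50 after the transcription start (RefSeq, GRCm38.p6). Capitals mark matches to a complete CRE (TGACGTCA, bound by CREB family factors) or a CArG box (bound by serum response factor). They lie at chr10:99262981-99263280 on the plus strand for Dusp6, chr19:53528895-53529194 on the plus strand for Dusp5, chr1:184034131-184034430 on the plus strand for Dusp10 and chr17:26508423-26508722 on the minus strand for Dusp1.
Dusp6: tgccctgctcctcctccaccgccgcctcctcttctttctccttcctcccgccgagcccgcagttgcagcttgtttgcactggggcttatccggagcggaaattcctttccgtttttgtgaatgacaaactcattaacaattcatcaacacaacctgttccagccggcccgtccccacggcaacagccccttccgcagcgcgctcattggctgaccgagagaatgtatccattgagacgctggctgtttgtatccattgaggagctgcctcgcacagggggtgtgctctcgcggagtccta
Dusp5: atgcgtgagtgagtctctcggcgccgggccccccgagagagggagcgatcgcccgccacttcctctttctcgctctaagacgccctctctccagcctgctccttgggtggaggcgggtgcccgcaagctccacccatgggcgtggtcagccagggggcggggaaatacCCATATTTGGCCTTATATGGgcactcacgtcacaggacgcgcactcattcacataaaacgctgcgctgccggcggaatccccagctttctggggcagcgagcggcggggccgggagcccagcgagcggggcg
Dusp10: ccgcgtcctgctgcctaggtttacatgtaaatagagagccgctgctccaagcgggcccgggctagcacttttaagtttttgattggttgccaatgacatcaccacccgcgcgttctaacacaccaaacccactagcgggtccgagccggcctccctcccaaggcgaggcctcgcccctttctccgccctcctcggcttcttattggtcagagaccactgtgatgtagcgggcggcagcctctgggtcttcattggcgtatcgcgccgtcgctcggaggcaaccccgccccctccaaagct
Dusp1: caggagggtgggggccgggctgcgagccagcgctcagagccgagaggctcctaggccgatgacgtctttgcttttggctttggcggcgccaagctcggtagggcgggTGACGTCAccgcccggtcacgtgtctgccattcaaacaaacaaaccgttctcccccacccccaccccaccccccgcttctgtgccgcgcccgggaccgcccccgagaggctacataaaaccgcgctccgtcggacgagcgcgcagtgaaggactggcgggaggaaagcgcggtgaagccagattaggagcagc

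Of the 10 genes, 8 were matched in the promoter table; Dusp4 and Spry4 were not. On both strands of these 8 windows, the CRE was found in Dusp1 alone, against 1.79% of 32851 promoters of the same length. CArG boxes were found in Dusp5 alone, 2 of them starting 82 and 72 bases before the transcription start, against 1.63% of all promoters. The CRE half-site TGACG, which lies within the CRE and is not capitalised, was found in Dusp1, Dusp5 and Spred2, against 20.8% of all promoters. AP-1 (TGANTCA), ETS (CCGGAAG), STAT (TTCNNNGAA) and EGR (GCGNGGGCG) motifs were found in none of the 8, against 7.81%, 8.86%, 8.3% and 5.55% of all promoters. A match describes the letters in these windows only.

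Dusp6 encodes a cytoplasmic phosphatase selective for ERK and is itself induced by ERK activity. Its log2 values were 8.93, 8.78 and 7.93 on light damaged arrays 1, 2 and 3, against 7.13, 6.51 and 6.93 on dark adapted arrays 1, 2 and 3. The lowest light damaged array lay above the highest dark adapted one, but light damaged array 3 stood well below the other two. The means were 8.55 ± 0.54 in light damaged and 6.86 ± 0.32 in dark adapted retinas (SD, n = 3 each), a change of 1.69 ± 0.28 (SE; limma adjusted p = 0.0210, and 0.000924 with the replicate block). In pairs of the same number the differences were 1.81, 2.27 and 0.995. The call depended on single arrays: the adjusted p was 0.0752 and 0.0941 without light damaged replicates 1 and 2, and 0.0882 and 0.0551 without dark adapted replicates 2 and 3. Without light damaged replicate 3 the change was 2.00 (adjusted p = 0.0157), and without dark adapted replicate 1 it was 1.83 (adjusted p = 0.0220). Over the 6 omissions the change stayed between 1.50 and 2.00.

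Dusp5 encodes a nuclear phosphatase that is selective for ERK. Its log2 values were 9.19, 9.07 and 9.16 on the light damaged arrays, against 8.77, 8.14 and 8.48 on the dark adapted arrays. The groups did not overlap, and the light damaged arrays were nearly equal while the dark adapted ones spread more widely. The change was 0.67 ± 0.17 (SE), a 1.60-fold difference, with a limma adjusted p of 0.113 and of 0.00893 with the replicate block. Without dark adapted replicate 1, the highest dark adapted array, Dusp5 passed the test without the block as well (0.83, limma adjusted p = 0.0418).

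Dusp4 encodes an inducible nuclear phosphatase that acts on ERK and also on JNK and p38. Its log2 values were 8.04, 7.82 and 8.01 on the light damaged arrays, against 8.37, 8.18 and 8.46 on the dark adapted arrays. Every light damaged value lay below every dark adapted one, opposite in direction to Dusp5 and Dusp6. The change was -0.38 ± 0.14 (SE) and did not pass the test (limma adjusted p = 0.307, and 0.0523 with the replicate block). It lay just past the threshold in the paired fit after a further quantile normalization (-0.50, limma adjusted p = 0.0471) and on the mean of each gene's probe sets (-0.38, limma adjusted p = 0.0354).

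**Figure D1:**
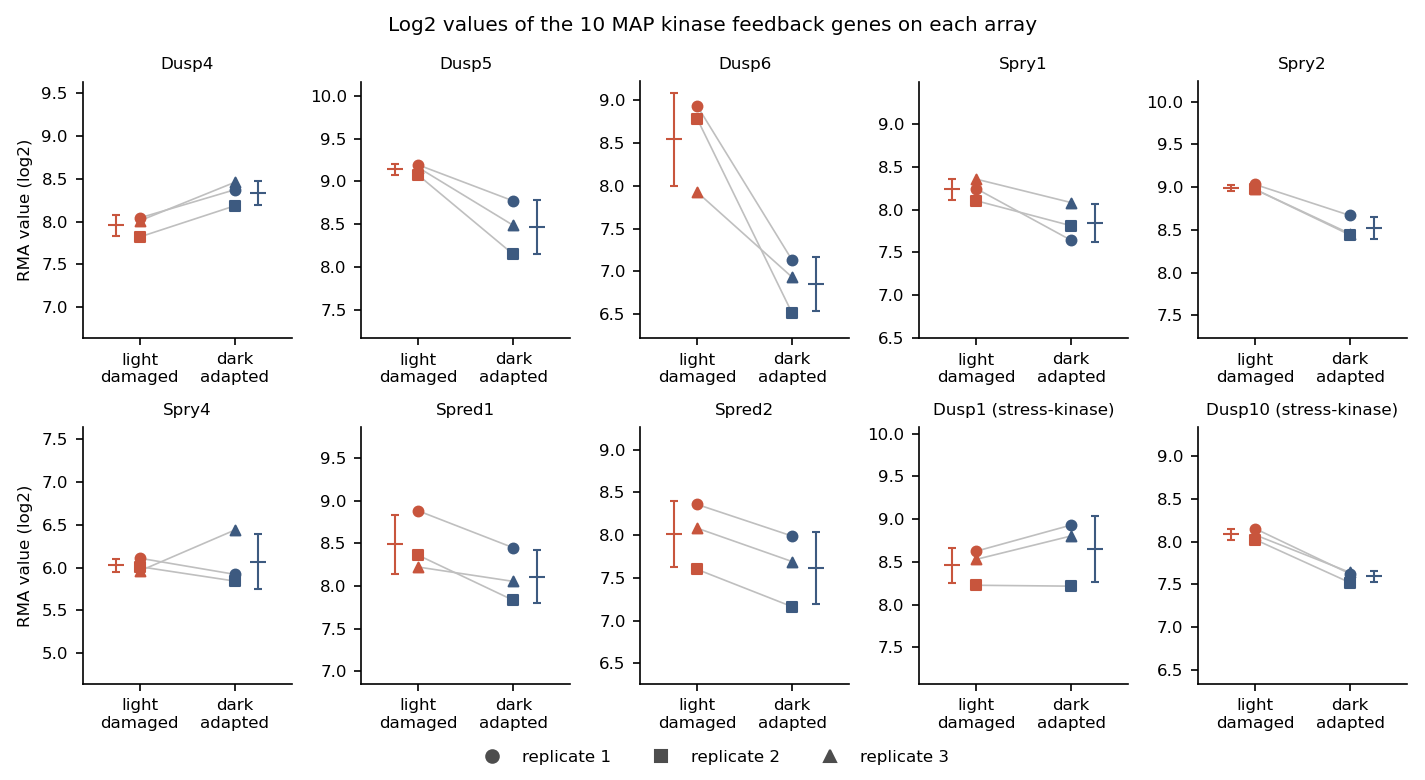
RMA log2 values of the 10 genes (highest-mean probe set) on the light damaged (left, red) and dark adapted (right, blue) arrays. Symbols are replicate numbers, grey lines join equal numbers, bars are mean ± SD (n = 3), and all panels span 3 log2 units. Dusp6 shows the widest separation, from 7.93 to 8.93 in light damaged and from 6.51 to 7.13 in dark adapted retinas, and Dusp4 is lower in light damaged retinas.

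The Sprouty proteins are membrane-associated inhibitors that growth factor receptors induce, best known as brakes on fibroblast growth factor signals. Spry2 had log2 values of 9.03, 8.97 and 8.97 on the light damaged arrays, against 8.67, 8.44 and 8.45 on the dark adapted arrays. The groups did not overlap, and the change was 0.47 ± 0.13 (SE; limma adjusted p = 0.135, and 0.0234 with the replicate block). A dimmer probe set of Spry2 gave -0.33 ± 0.26 (SE), with overlapping groups, and the mean of both probe sets gave 0.07 (limma adjusted p = 0.955), so the value for Spry2 holds for the brighter probe set only. Spry1 had log2 values of 8.25, 8.11 and 8.36 on the light damaged arrays, against 7.64, 7.81 and 8.08 on the dark adapted arrays. Its groups lay next to each other without overlap, and the change of 0.39 ± 0.15 (SE) did not pass (limma adjusted p = 0.374, and 0.0677 with the replicate block).

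Spry4 had log2 values of 6.11, 6.01 and 5.96 on the light damaged arrays, against 5.92, 5.84 and 6.44 on the dark adapted arrays, and the groups overlapped. Its change was -0.04 ± 0.18 (SE; limma adjusted p = 0.983). The other 3 probe sets of Spry4 gave changes between 0.01 and 0.08, and 1 of them lay below the lower quartile of its array on all 6 arrays.

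Spred proteins hold Raf inactive and bring neurofibromin, an inactivator of Ras, to the membrane. Spred2 had log2 values of 8.36, 7.60 and 8.08 on the light damaged arrays, against 7.99, 7.16 and 7.69 on the dark adapted arrays. The groups overlapped widely, yet each light damaged array exceeded the dark adapted array of its own number by nearly the same amount, 0.37, 0.44 and 0.39. The change of 0.40 accordingly had an SE of 0.26 and a limma adjusted p of 0.701 without the block, and an adjusted p of 0.0423 with it. The other 4 probe sets of Spred2 gave changes between -0.02 and 0.14.

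Spred1 had log2 values of 8.88, 8.36 and 8.22 on the light damaged arrays, against 8.45, 7.83 and 8.05 on the dark adapted arrays, again with overlap. Its change was 0.38 ± 0.22 (SE; limma adjusted p = 0.650, and 0.0777 with the replicate block). Of its 8 probe sets 6 had positive changes, between 0.36 and 0.60, and 2 had negative ones, -0.20 and -0.26. The highest of them, 0.60 ± 0.24 (SE), was read by a probe set that may match several transcripts and passed over all probe sets only with the block (limma adjusted p = 0.0254).

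**Figure D2:**
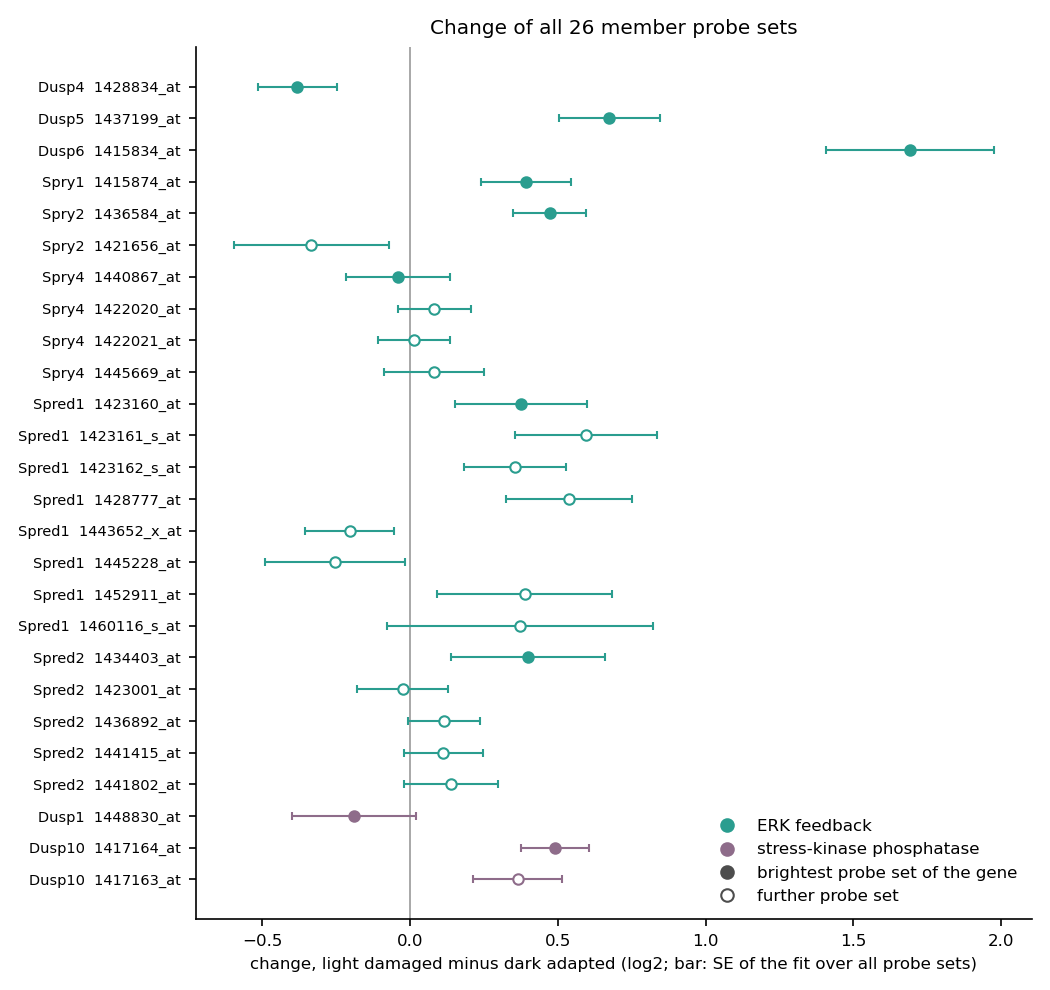
Change of each of the 26 probe sets (light damaged minus dark adapted, log2, with the SE of the fit over all probe sets), ERK feedback genes in green and stress-kinase phosphatases in purple, with filled points for the highest-mean probe set of a gene. Dusp6 stands at 1.69, all others lie between -0.38 and 0.67, and the probe sets of Spry2 and Spred1 fall on both sides of 0.

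Over all 26 probe sets, 19 had a positive change. In the fit over all probe sets 1 of them, that of Dusp6, was higher (limma adjusted p = 0.0422), and 0 were lower, against 0.913% of all probe sets called higher. With the replicate block 5 were higher, against 3.48% of all probe sets. These 5 belonged to Dusp5, Dusp6, Spry2, Spred1 and Dusp10, so Spred2 (limma adjusted p = 0.0683 there) gave way to Spred1 when the adjustment ran over probe sets in place of genes. Of the 5 genes with several probe sets, 4 had at least 1 with the sign opposite to that of the brightest, and Dusp10 was the exception.

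Dusp10 encodes a phosphatase of JNK and p38. On the log2 scale it read 8.15, 8.02 and 8.08 on the light damaged arrays, against 7.62, 7.52 and 7.64 on the dark adapted arrays. Both groups were tight and did not overlap. The change was 0.49 ± 0.12 (SE), a 1.41-fold difference, with a limma adjusted p of 0.0987 and of 0.0171 with the replicate block. The pairs gave 0.53, 0.50 and 0.44, and the second probe set gave 0.36 ± 0.15 (SE), also without overlap.

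Dusp1 encodes a nuclear phosphatase induced early by growth factors, stress and glucocorticoids. The log2 values of Dusp1 were 8.63, 8.23 and 8.53 on the light damaged arrays, against 8.93, 8.22 and 8.80 on the dark adapted arrays. The groups overlapped, and replicate 2 was the lowest array of each group. The change was -0.19 ± 0.21 (SE; limma adjusted p = 0.880, and 0.364 with the replicate block).

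**Figure D3:**
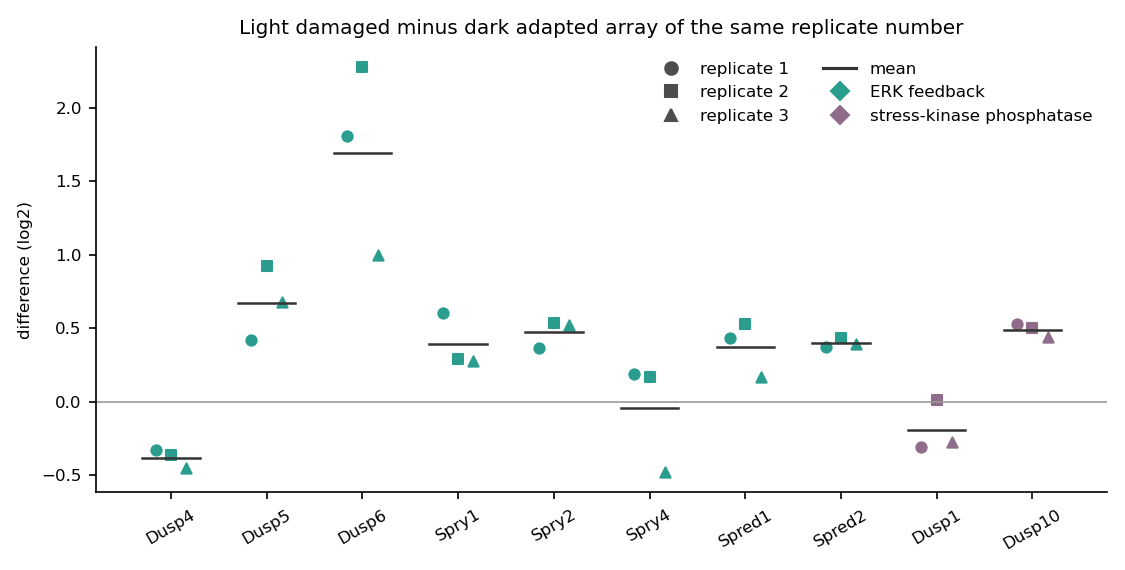
Difference between the light damaged and the dark adapted array of the same replicate number (log2) for each gene, with the mean as a line, ERK feedback genes in green and stress-kinase phosphatases in purple. The 3 differences of Spred2 and Dusp10 lie close together, those of Dusp6 run from 0.995 to 2.27, and those of Spry4 and Dusp1 take both signs.

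Of the 10 genes, 5 (Dusp5, Dusp6, Spry1, Spry2 and Dusp10) had all light damaged arrays above all dark adapted ones, which held for 11.9% of all genes. Dusp4 alone had them all below, which held for 3.75% of all genes. The median change of the 10 genes was 0.39 and that of all genes 0.03. The calls made with the block depended on the scaling. Centring each array on reference genes moved the median change of all genes to -0.14, and the 5 genes called with the block then became 1, Dusp6 (1.52, limma adjusted p = 0.0494 with block and centring). Of the 6 measured reference genes Actb itself had a positive change (0.70, limma adjusted p = 0.0910, and 0.0112 with the block). Centring on the other 5 moved the median of all genes to -0.03, and with the block Dusp6 was again the 1 member called (1.63, limma adjusted p = 0.0325). Dusp5 then had an adjusted p of 0.0590, Spry2 of 0.0781, Dusp10 of 0.0907 and Spred2 of 0.139 (limma). A further quantile normalization with the block left Dusp5 and Dusp6 higher and Dusp4 lower.

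The ERK feedback genes were set against the stress-kinase phosphatases within each array. The mean log2 value of the 8 ERK feedback genes minus that of Dusp1 and Dusp10 was -0.04, -0.04 and -0.22 on light damaged arrays 1, 2 and 3, against -0.41, -0.38 and -0.40 on the dark adapted arrays. The groups did not overlap, with means of -0.10 ± 0.10 in light damaged and -0.39 ± 0.02 in dark adapted retinas (SD, n = 3 each). The mean change was 0.45 for the ERK feedback genes and 0.15 for the stress-kinase phosphatases, a difference of 0.30. Without Dusp6 the difference was 0.12. It was 0.42 without Dusp4 and 0.59 with Dusp4 counted among the stress-kinase phosphatases. Dusp16, whose product also acts mainly on JNK and p38, was in neither class. It changed by 0.68, more than the mean of either class, and no class difference with it counted is given. Both classes held genes of either sign, with Dusp6 and Dusp4 at the ends of the first and Dusp10 and Dusp1 making up the second. The difference also hung on Dusp1 (-0.19), since Dusp10 alone changed by 0.49, more than the mean of the ERK feedback genes (0.45). No p is given, since the genes were chosen with results of these data known.

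Brakes outside the 10 genes showed no calls without the replicate block, where 1.74% of all genes passed as higher and 0.269% as lower. At those shares 0 calls in lists this short says little. Of 16 other Dusp genes 0 passed the limma test, and their median change was 0.02. At an unadjusted p under 0.05, 2 were higher and 1 lower, against 8.58% and 2.42% of all genes. With the replicate block 2 were higher and 1 lower, against 6.73% and 2.13% of all genes. The gene of smallest p was Dusp14, an atypical dual-specificity phosphatase (-0.57 ± 0.16, SE; limma adjusted p = 0.162, and 0.00915 with the replicate block). Its log2 values were 6.99, 6.80 and 6.59 on the light damaged arrays, against 7.58, 7.29 and 7.20 on the dark adapted arrays, without overlap. The 2 genes higher with the block, described here after their values were seen, were Dusp16, whose product acts mainly on JNK and p38, and Dusp26. Dusp16 averaged 9.03 ± 0.02 in light damaged and 8.35 ± 0.40 in dark adapted retinas (SD, n = 3 each), without overlap, a change of 0.68 ± 0.20 (SE; limma adjusted p = 0.180, and 0.0187 with the block). For Dusp26 the difference was 0.51 ± 0.20 (SE; limma adjusted p = 0.372, and 0.0266 with the block). Dusp16 was not among the stress-kinase phosphatases of the class comparison. Among 15 other brakes of receptor and Ras signalling 0 passed with or without the block, and 0 had an unadjusted p under 0.05. Pebp1, a Raf inhibitor, had the smallest p (0.31, limma adjusted p = 0.513), and their changes ran from -0.31 to 0.47.

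Among genes known as outputs of the kinases, several rose. Of all genes, 1.74% passed as higher and 0.269% as lower, and with the replicate block 6.73% and 2.13%. Of 17 measured ERK output genes, 3 rose and 0 fell, with a median change of 0.80, and with the replicate block 12 were higher. Hmga2, which encodes a chromatin protein, rose 4.47-fold, Ccnd1 (cyclin D1) 2.81-fold and Myc, a growth-promoting transcription factor gene, 2.72-fold (limma adjusted p = 0.00294, 0.00359 and 0.00871). On the mean of its probe sets Hmga2 changed by 1.50 in place of 2.16 on the log2 scale (limma adjusted p = 0.00142). Of 14 measured JNK and p38 output genes 5 rose and 0 fell, with a median of 0.66, and with the block 9 were higher. Both output lists were fixed by name, and which kinase acted on a gene was not tested. Their medians therefore do not measure the kinases separately. Junb, an AP-1 subunit gene, rose 4.54-fold, Gadd45b, an activator of stress-kinase signalling, 3.66-fold and Atf3, a stress-induced transcription factor gene, 3.32-fold (limma adjusted p = 0.00190, 0.0115 and 0.00111). Gadd45b changed by 1.46 in place of 1.87 on the log2 scale on the mean of its probe sets (limma adjusted p = 0.00138). Myc and Gadd45b lost the call when certain single arrays were omitted, the highest adjusted p being 0.0599 for Myc and 0.0776 for Gadd45b (limma). With all 6 arrays kept, both lost it after centring on reference genes (limma adjusted p = 0.0583 for Myc and 0.0515 for Gadd45b), and both kept it when Actb was left out of these (0.0361 and 0.0354).

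The genes of the cascades themselves did not pass without the block, where 1.74% of all genes passed as higher. With the block 6.73% of all genes were higher, and without it 8.58% were higher at an unadjusted p under 0.05. In lists this short 0 calls says little. Of 13 measured ERK cascade genes 0 were called with or without the block, with 2 higher at an unadjusted p under 0.05. Ptpn11, which encodes the phosphatase that relays receptor signals to Ras, had the smallest p (0.36, limma adjusted p = 0.326). Of 20 measured JNK and p38 cascade genes 0 were called, with 3 higher at an unadjusted p under 0.05, and with the replicate block 3 were higher. Map3k8, a kinase upstream of both ERK and JNK, led them (0.92 ± 0.20, SE; limma adjusted p = 0.0626, and 0.00544 with the block). Its log2 values were 6.60, 6.45 and 6.00 on the light damaged arrays, against 5.21, 5.69 and 5.38 on the dark adapted arrays.

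Upstream, 3 of 15 measured ligand genes and 2 of 16 measured receptor genes rose, and 0 fell. With the replicate block 4 of each were higher. Of all genes, 1.74% were higher and 0.269% lower without the block, and 6.73% and 2.13% with it. The ligands were Edn2 (endothelin 2), Fgf2 and Btc (betacellulin, a ligand of the EGF receptor). Btc had log2 values of 8.35, 8.25 and 8.15 on the light damaged arrays, against 7.34, 7.02 and 7.39 on the dark adapted arrays, a change of 1.00 ± 0.15 (SE; limma adjusted p = 0.0124, not called in 4 of the 6 omissions of an array, with adjusted p up to 0.0665). Edn2 rose by 3.69 and Fgf2 by 1.72 on the log2 scale, and Fgf2 was not called in 5 of the 6 omissions, with limma adjusted p up to 0.142. In dark adapted retinas Fgf2 averaged 4.55, below the lower quartiles of the arrays (4.98 to 5.11). The size of its change is therefore uncertain. Centred on reference genes, Btc was not called with all 6 arrays (limma adjusted p = 0.0743, and 0.0524 with the block), while without Actb among them it was (0.0369, and 0.0274 with the block). The receptors were Ednrb (endothelin receptor B, 2.75) and Met, the receptor of hepatocyte growth factor. On the mean of each gene's probe sets Ednrb changed by 1.76, and Met by 1.88 in place of 2.30 (limma adjusted p = 0.00287 and 0.000701). Met had log2 values of 8.23, 8.16 and 8.07 on the light damaged arrays, against 6.11, 5.97 and 5.49 on the dark adapted arrays, and rose 4.92-fold (limma adjusted p = 0.000979).

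**Figure D4:**
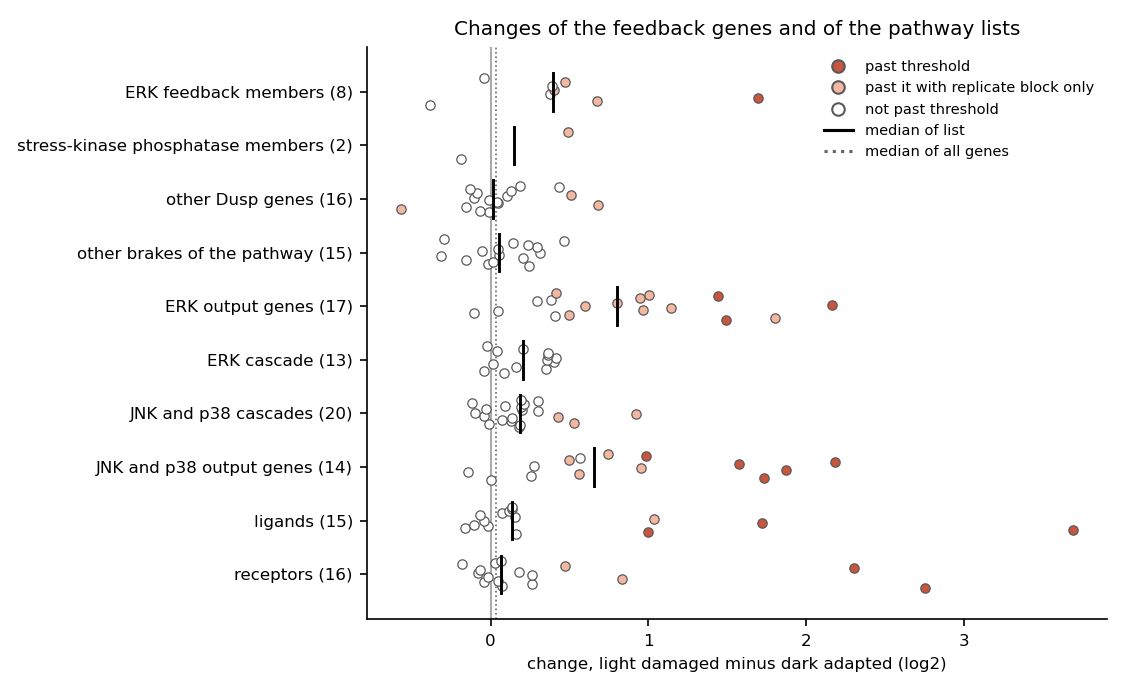
Change of each measured gene (light damaged minus dark adapted, log2) in the 2 classes of feedback genes and in 8 pathway lists, with the number measured in brackets. Dark red points passed the threshold, light red ones only with the replicate block, white ones not; black bars are list medians and the dotted line the median of all genes. Medians are 0.80 and 0.66 for the output genes, 0.39 for the ERK feedback genes and 0.02 for the other Dusp genes.

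Markers of several cell types moved with the groups, and in bulk retina fewer cells of a type and less RNA per cell cannot be told apart. Of all genes, 1.74% were called higher and 0.269% lower, and with the block 6.73% and 2.13%. At an unadjusted p under 0.05, 8.58% of all genes were higher and 2.42% lower. All 8 reactive glia markers rose, led by Lcn2 (4.16), and their mean log2 level was 9.72 to 9.85 on the light damaged against 7.23 to 7.53 on the dark adapted arrays. Rod markers (9 measured) averaged 10.79 to 11.21 on the light damaged against 11.41 to 11.94 on the dark adapted arrays, with 2 lower, Cngb1 among them (2.01-fold; not called in 5 of the 6 omissions of an array, with limma adjusted p up to 0.116), and with the block 6 were lower. Cone markers (7 measured) averaged 8.49 to 8.73 on the light damaged against 9.02 to 9.52 on the dark adapted arrays, with 3 lower, led by Opn1sw (-1.62). Müller cell markers (8 measured) averaged 9.42 to 9.82 on the light damaged against 9.43 to 9.81 on the dark adapted arrays, and 0 were called (3 higher and 1 lower at an unadjusted p under 0.05), Glul having the smallest p (-0.99, limma adjusted p = 0.0652, and 0.000775 with the replicate block). With the block 3 were higher, Slc1a3, Kcnj10 and Sox9 (0.66, 0.77 and 0.40; limma adjusted p = 0.00642, 0.00199 and 0.0454), and 2 lower, Glul and Rlbp1 (Rlbp1 -0.50, limma adjusted p = 0.0329). Microglia markers (10 measured) averaged 6.41 to 6.57 on the light damaged against 6.09 to 6.21 on the dark adapted arrays, with 1 higher, Cd68 (1.88). Their median change was only 0.10, and 3 were higher and 1 lower at an unadjusted p under 0.05. With the block Cd68 and C1qa (1.21) were higher and P2ry12 (-0.48) lower (limma adjusted p = 3.83e-05, 0.000428 and 0.0199). The part of these shifts in the changes of Dusp6 and the other feedback genes was not tested.

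Of other cell types, 0 bipolar, 0 amacrine or horizontal, 0 ganglion and 0 endothelial or pericyte markers passed the limma test, and at an unadjusted p under 0.05 there were 0, 0, 1 and 1. The shares of all genes given in the paragraph above hold for these counts too. The genes of smallest p were Trpm1 (0.30), Slc6a9 (0.19), Pou4f1 (0.57) and Kdr (0.44). Pigment epithelium markers, led by Rdh5 (0.82), and blood markers, led by Ptprc (0.47), had 0 calls, with 2 and 1 higher at an unadjusted p under 0.05. With the block Kdr, Ptprc and the pigment epithelium marker Ttr were higher (limma adjusted p = 0.0318, 0.0477 and 0.0471). Ptprc was dim, averaging 4.69 in light damaged and 4.22 in dark adapted retinas, below the lower quartiles of the arrays. On the mean of its probe sets it changed by 0.24 (limma adjusted p = 0.218 with the block). Of 5 measured blood markers 2 had a positive change. Lens markers (7 measured) were highest on replicate 3 of both groups, at 8.86, 9.14 and 11.03 on light damaged arrays 1, 2 and 3 against 9.80, 10.46 and 11.42 on dark adapted arrays 1, 2 and 3, with 0 calls (1 lower at an unadjusted p under 0.05) and Crygb of smallest p (-2.20, limma adjusted p = 0.409). With the replicate block 4 of the 7 lens markers were lower, Crygb, Crygd, Bfsp1 and Lim2 (limma adjusted p = 0.000693, 0.000186, 0.00028 and 0.0418), so in the paired fit lens markers differed between the groups too. Light damaged array 3, the highest of its group in lens markers, was also the lowest in Dusp6, and Dusp6 changed by 2.00 without it. Dark adapted array 3 was likewise the highest of its group in lens markers, but not the lowest in Dusp6 (6.93, against 6.51 on dark adapted array 2). A link between lens content and the Dusp6 values was not tested.

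Dusp6 had the smallest p of the 10 genes, and the genes whose values followed it most closely over the 6 arrays were E2f6 (Pearson r = 0.993), 1110038B12Rik (r = 0.993) and Tspan14 (r = 0.988). Their changes were 0.66, 0.71 and 0.68, and none of the 3 passed the limma test (adjusted p = 0.0876, 0.112 and 0.0559). The 3 were not alone, as 87 genes outside the 10, these included, followed Dusp6 closely. These correlations describe 6 arrays that fall into 2 groups.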

How the data were processed

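The deposited log2 values of 6 Affymetrix arrays were used as the authors made them with RMA (background correction, quantile normalization and probe summary), per the submitters' processing notes; the sources used here name no version, and the log2 scale was judged from the range of 3.30 to 13.89. Array medians lay between 6.15 and 6.18, but upper quartiles ran from 7.41 on dark adapted array 3 to 7.67 on light damaged array 1. A further quantile normalization lowered the changes of the 10 genes, that of Spry2 from 0.47 to 0.34 and that of Dusp10 from 0.49 to 0.39. RMA hides changes in total RNA per retina and compresses dim and bright probe sets. Arrays have no counting depth; their number limits precision.

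Groups and replicate numbers come from the sample titles. Symbols come from GEO's platform annotation, matched by Entrez identifier to RefSeq genes of GRCm38.p6. Each of 18193 genes was read by its probe set of highest mean among those assigned to it alone, without a filter on level. Groups were compared with limma 3.58.1 in R 4.3.3 (lmFit and eBayes, no trend), adjusted by Benjamini-Hochberg over all genes, or over 45037 probe sets without controls where stated. The fit without the replicate block was tested on simulated data in which all arrays were independent, and the fit with the block was not. Values are light damaged minus dark adapted.

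Deviations from the group means correlated between 0.447 and 0.746 for equal replicate numbers and between -0.486 and 0.0292 for others. As all 3 exceeded 0.1, the numbers were taken to pair the arrays, a choice that rests on the values since no label states it. Fits with the block rest on this.

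The 10 genes, the 8 pathway and 12 marker lists and the tests were chosen with earlier results of these data known, so nothing here is independent support. Of 245 genes in the lists outside the 10, 220 were analysed here. Named were all 10 genes, per pathway list up to 3 genes with the largest change past the threshold or else the gene of smallest p, per marker list the gene of smallest p, and the 3 genes most like the member of smallest p. Promoters were searched in the RefSeq table. Alternatives changed the block, normalization, centring, probe sets, filter, moderation and arrays.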

Additional observations from a re-analysis of the deposited data

How the results depend on the processing

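Dusp6 kept its direction under all alternatives run and its call under all except 4 of the 6 that left out an array. Of 179 alternative values of the 10 genes, 162 kept direction and side of the threshold, 10 passed it newly, 4 (all of Dusp6) no longer passed and 3 reversed, all of Spry4: 0.034 on the mean of its probe sets, with and without the block, and, with single arrays left out (-0.15 to 0.14), 0.14 without dark adapted replicate 3. The replicate block raised the genes called from 365 to 1613, the 10 members' calls from 1 to 5 both by gene and by probe set, and the calls in the pathway lists from 13 to 35. Chosen after seeing the data, the block gave 1240 genes and 3 members with a further quantile normalization, 818 and 1 with reference centring, 1001 and 1 with reference centring without Actb, and 1327 and 4 on the mean of a gene's probe sets. Without the block, Dusp6 was the single member called under each of these. With single arrays left out, 151 to 417 genes, 0 to 2 members and 0 to 1 member probe sets were called, and the difference between the classes lay between 0.27 and 0.36. That difference was 0.42 with Dusp4 in neither class, 0.59 with Dusp4 among the stress-kinase phosphatases, and 0.12 without Dusp6, the last added after seeing the data. It rested on the negative change of Dusp1 as well, since Dusp10 alone exceeded the mean change of the ERK feedback genes. So did Dusp16 (0.68), which was in neither class, and no difference with it counted is given. Scaling alone moved the split of all calls: 316 higher and 49 lower became 327 and 162 after a further quantile normalization and 162 and 110 after reference centring (244 and 89 without Actb), while 6 of the 8 reference genes were measured. The cause of these shifts was not tested. A dim probe set of Spry4, 1 of Spred1 and 1 of Spred2 lay below the lower quartile on all 6 arrays, where a change is hardly measurable.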
